A study of Homo sapiens with 6 samples.

Results

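The 8 genes for inhibitors of cyclin-dependent kinases (CDKs) and their close relatives were followed through every library: CDKN1A, CDKN1B and CDKN1C of the CIP/KIP family, CDKN2A, CDKN2B, CDKN2C and CDKN2D of the INK4 family, and CDKN3, a phosphatase that acts on CDKs. They were chosen by name, with earlier results of these data known, and each symbol stands on 1 of the 53826 entries listed for every library. RNA from 6 cultures had been sequenced, 1 library per condition. They came from a pair of established human pancreatic ductal adenocarcinoma lines, PK-1 and Panc-1. For each line there was a Control and a library after 24 h of each of 2 antagonists of the retinoic acid receptor RARγ, LY2955303 (called RARγi-1) and MM11253 (RARγi-2), so that each group is a single culture of a tumor line. The question of the series was how inhibition of RARγ changes gene expression in these lines. The dose given for sequencing and the vehicle of the controls are not stated in the sources used here, and a treatment label on both RARγi-2 libraries reads RARγi-1, so these libraries were placed by their titles. Each condition has 1 library, so no difference has a replicate check. The lines were not used as replicates of each other and no p-value was computed.

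CIP/KIP proteins bind cyclin-CDK complexes, above all those of CDK2, and hold the cell before S phase, while INK4 proteins bind CDK4 and CDK6 alone and keep D-type cyclins from activating them. CDKN3 (KAP) removes the activating phosphate from CDKs. In pancreatic ductal adenocarcinoma the INK4 locus at 9p21, which carries CDKN2A and CDKN2B, is one of the most frequently lost regions of the genome. The study lists a copy number alteration of CDKN2A in both lines, without its direction.

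The members did not move as one group after treatment. Under both inhibitors and in both lines, CDKN1A (p21) was higher past 2-fold and CDKN2C (p18) was lower past 2-fold, and CDKN3 was lower in all 4 comparisons, past 2-fold in 3 of them. CDKN1B (p27) was higher in all 4 at folds near 2. CDKN1C (p57) was higher and CDKN2D (p19) lower past 2-fold in Panc-1 under both inhibitors. CDKN2A (p16 and p14ARF) and CDKN2B (p15) were listed at the lowest value of the scale in all 6 libraries.

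Levels are in TPM, transcript abundances scaled to transcript length and to the library total, so that genes can be set side by side. The authors raised every value under 1 TPM to 1 TPM, here called the floor. A fold change is the log2 ratio of (TPM + 1) after treatment to (TPM + 1) in the Control of that line, and a change is counted from 2-fold on that scale.

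**Figure D1:**
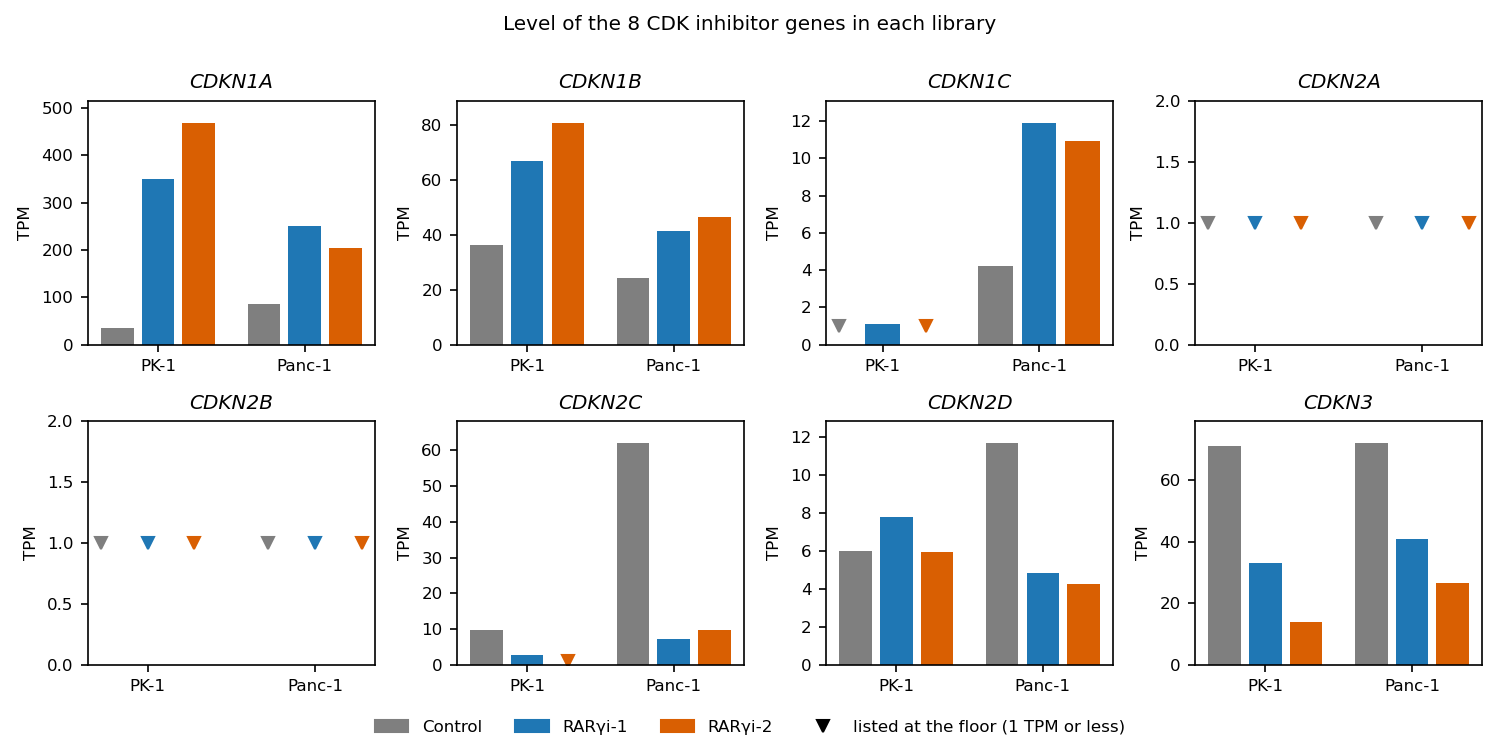
Each panel plots 1 gene, with TPM from 0 on the vertical axis and the 3 libraries of PK-1 and of Panc-1 along the horizontal axis; a triangle marks a library in which the gene was listed at the floor of 1 TPM. CDKN1A and CDKN1B stood above their Control in every treated library, CDKN3 stood below it in every treated library, and CDKN2A and CDKN2B held only triangles. Bars are single libraries and have no error.

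Upstream sequences of 4 members are shown because genes that were higher or lower after treatment can be compared for the letters that general and cell cycle transcription factors read. The RefSeq promoter table of GRCh38.p14 held 7 of the 8 members (not CDKN1C), with 10 start sites, and listed only 1 start each for CDKN1A, CDKN1B, CDKN2B, CDKN2D and CDKN3. The listed start of CDKN1A lies inside its gene interval, which begins at chr6:36676463, so bases before a start further upstream were not searched. The 250 bases before the start are given below, 5′ to 3′ on the strand of the gene, for CDKN1A (chr6:36678464-36678713, plus strand) and CDKN1B (chr12:12717118-12717367, plus strand), which were higher after treatment, and for CDKN2D (chr19:10568980-10569229, minus strand) and CDKN3 (chr14:54396757-54397006, plus strand), which were lower in at least 1 line. CDKN2C is not printed, because gene-level values do not say which of its 3 starts was used. Capitals mark CCAAT on either strand, the letters that NF-Y reads.
CDKN1A: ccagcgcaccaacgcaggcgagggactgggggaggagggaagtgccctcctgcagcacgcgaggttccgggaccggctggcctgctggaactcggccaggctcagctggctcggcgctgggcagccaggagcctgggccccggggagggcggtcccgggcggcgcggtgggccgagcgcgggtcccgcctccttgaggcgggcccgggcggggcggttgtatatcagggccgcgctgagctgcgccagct
CDKN1B: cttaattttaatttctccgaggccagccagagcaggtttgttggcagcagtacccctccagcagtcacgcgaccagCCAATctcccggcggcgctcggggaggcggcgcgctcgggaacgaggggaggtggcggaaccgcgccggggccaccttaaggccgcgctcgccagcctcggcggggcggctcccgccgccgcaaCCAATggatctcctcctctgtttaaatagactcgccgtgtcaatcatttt
CDKN2D: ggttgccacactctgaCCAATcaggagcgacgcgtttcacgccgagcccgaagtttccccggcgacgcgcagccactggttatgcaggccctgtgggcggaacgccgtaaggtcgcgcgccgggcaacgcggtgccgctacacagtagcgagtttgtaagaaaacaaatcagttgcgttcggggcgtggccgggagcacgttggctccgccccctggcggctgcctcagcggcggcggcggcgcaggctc
CDKN3: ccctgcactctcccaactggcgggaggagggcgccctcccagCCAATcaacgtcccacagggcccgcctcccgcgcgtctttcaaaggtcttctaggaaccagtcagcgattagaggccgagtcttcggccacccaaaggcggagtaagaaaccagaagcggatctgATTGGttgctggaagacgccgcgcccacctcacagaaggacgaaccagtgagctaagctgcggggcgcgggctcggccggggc
CCAAT was found 2 times in CDKN1B, at 174 and 50 bases before the start, 2 times in CDKN3, at 208 and 83 bases, 1 time in CDKN2D, at 234 bases, and not in CDKN1A. Of all 35116 promoters in the table, 32.0% hold CCAAT on either strand in the same 250 bases. The GC box GGGCGG, read by SP1, was found 4 times in CDKN1A, 2 times in CDKN2D, 1 time in CDKN1B and not in CDKN3, against 42.6% of all promoters. CDKN3 alone of the 10 member windows held TTTGAA, the CHR letters of genes used late in the cell cycle, which 13.3% of promoters hold. CACGTG, an E box that MYC family proteins read, was found in 2 of the 3 windows of CDKN2C and in no other member, against 6.34% of promoters. The E2F letters TTTCCCGC and TTTGGCGC and the AP-1 letters TGANTCA were in none of the 10 windows. Both strands were searched for every motif, and no match in these windows overlapped a match of another motif. A match is a description of letters, not of a site in use.

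CDKN1A (Entrez 1026, chr6:36676463-36687332) encodes p21, a CIP/KIP inhibitor that is switched on in many kinds of stress. Its level in PK-1 was 36.1, 349.9 and 468.3 TPM in Control, RARγi-1 and RARγi-2, and its level in Panc-1 was 86.1, 249.8 and 204.3 TPM in the same order. All 4 treated libraries lay above both Controls, and the line with the lower Control reached the higher treated level. With RARγi-1 the log2 fold change was 3.24 in PK-1 and 1.53 in Panc-1; with RARγi-2 it was 3.66 in PK-1 and 1.24 in Panc-1. Among all entries above the floor in at least 1 of the libraries compared, these changes ranked 22 of 13965 and 44 of 14028 from the highest in PK-1, and 324 of 14004 and 754 of 13921 in Panc-1. By level, CDKN1A went from rank 4177 in PK-1 Control to rank 296 with RARγi-2, and from rank 1987 in Panc-1 Control to ranks 639 with RARγi-1 and 778 with RARγi-2.

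CDKN1B (Entrez 1027, chr12:12717368-12722369) encodes p27, which is governed largely by degradation of the protein. It measured 36.2, 66.8 and 80.8 TPM in PK-1 Control, RARγi-1 and RARγi-2, and 24.3, 41.4 and 46.7 TPM in Panc-1. The treated libraries were above their Control in both lines, by log2 fold changes of 0.87 and 0.74 (PK-1 and Panc-1) for RARγi-1 and of 1.13 and 0.91 for RARγi-2, of which only that of RARγi-2 in PK-1 passed 2-fold. In PK-1 Control its level was level with that of CDKN1A (36.2 against 36.1 TPM), and in every other library it was lower than CDKN1A.

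CDKN1C (Entrez 1028, chr11:2883218-2885775) encodes p57, the imprinted CIP/KIP member, expressed from the maternal copy. It was a gene of Panc-1 here: 4.20 TPM in Control, 11.9 TPM under RARγi-1 and 10.9 TPM under RARγi-2. The treated Panc-1 libraries were 1.31 and 1.20 above their Control on the log2 scale. In PK-1 it was listed at the floor in Control and with RARγi-2, and at 1.13 TPM with RARγi-1. Of the 8 genes listed beside it at 11p15 and present in the files, 6 were higher past 2-fold in Panc-1 Control than in PK-1 Control, where 15.7% of all entries were. With RARγi-1 in Panc-1, 2 of the 8 were higher past 2-fold (SLC22A18 and CARS), against 7.4% of all entries, and 2 were lower (H19 and IGF2), against 6.03%. With RARγi-2, CARS was higher and H19 and IGF2 were lower, against 8.5% and 11.2%. Of the 6 above the floor in PK-1, 3 (PHLDA2, SLC22A18 and CARS) were higher past 2-fold with both inhibitors. The shares of all entries there were 9.25% and 12.1%, and CDKN1C stayed at or near the floor. H19, an imprinted noncoding RNA, was listed at the floor in all 3 PK-1 libraries and at 72.8, 34.2 and 31.2 TPM in Panc-1 Control, RARγi-1 and RARγi-2.

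CDKN2C (Entrez 1031, chr1:50960745-50974634) encodes p18, and it was the INK4 member with the widest range. Its level was 9.89 TPM in PK-1 Control, 2.70 TPM with RARγi-1 and at the floor with RARγi-2, and 62.0, 7.13 and 9.90 TPM in Panc-1 Control, RARγi-1 and RARγi-2. Every treated library lay below the Control of its line. Panc-1 Control was 6.26-fold above PK-1 Control as a ratio of TPM without the added 1, and the treated Panc-1 libraries lay near the level of untreated PK-1. On the log2 scale PK-1 differed from its Control by −1.56 with RARγi-1 and −2.45 with RARγi-2, and Panc-1 by −2.95 and −2.53. The value of −2.45 takes the floor as 1 TPM, and the difference could be larger. From the lowest, these ranked 223, 237, 19 and 134 of all entries compared, in the same order. CDKN2C is transcribed from 3 start sites in RefSeq, which gene-level values do not separate.

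CDKN2D (Entrez 1032, chr19:10566460-10568979) encodes p19, the INK4 protein whose mRNA is known to peak in S phase. It measured 6.02, 7.81 and 5.94 TPM in PK-1 Control, RARγi-1 and RARγi-2, and 11.7, 4.86 and 4.25 TPM in Panc-1. In PK-1 the 3 libraries were close, with log2 fold changes of 0.33 and −0.02, and in Panc-1 both treated libraries were lower, with −1.11 and −1.27. RARγi-1 thus went with opposite signs in the lines, but the PK-1 value lies within the spread between the libraries of the inhibitors, described below.

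CDKN2A (Entrez 1029, chr9:21967752-21995324) and CDKN2B (Entrez 1030, chr9:22002903-22009313) were listed at the floor in all 6 libraries, so neither level nor change can be given for p16, p14ARF or p15. The study lists a copy number alteration of CDKN2A in both lines, and its part in these values was not tested. A listing at the floor is no proof of little RNA in these files, because EIF4A1 and EIF4E, translation initiation factors that every cell uses, were also listed at the floor in all 6 libraries (both were looked up after values had been seen). The protein-coding genes within 3000 kb of CDKN2A were then set side by side in the Controls, a window also chosen after values had been seen. Of 35 such genes, 24 were at the floor in all 6 libraries, CDKN2A and CDKN2B included, and 15 of the 35 are interferon genes of the alpha, beta or omega type, which few cells express without induction. The other 11 were above the floor in PK-1 Control, and each was lower in Panc-1 Control, where 3 of them were at the floor. Of all entries compared, 48.4% were lower in Panc-1 Control by any amount. Past 2-fold, 4 of the 11 were lower (PLIN2, DENND4C, MTAP and DMRTA1), against 14.6% of all entries. MTAP, the methionine salvage enzyme whose gene lies next to CDKN2A, measured 36.9, 23.5 and 14.5 TPM in PK-1 Control, RARγi-1 and RARγi-2, and 3.49, 3.45 and 2.24 TPM in Panc-1. DMRTA1, on the other side of CDKN2B, was at 9.77 TPM in PK-1 Control and 1.96 TPM in Panc-1 Control. MTAP and DMRTA1 were thus above the floor on both sides of the locus in both lines, with the Panc-1 levels close to the floor.

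**Figure D2:**
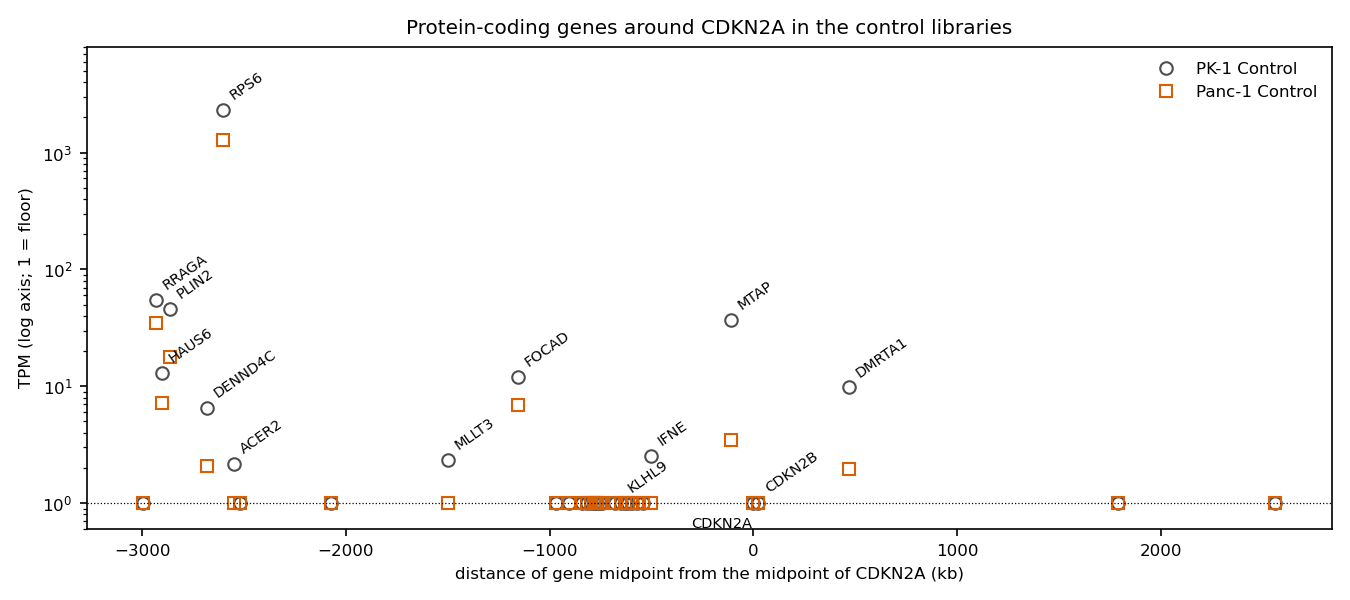
The 35 protein-coding genes within 3000 kb of CDKN2A are plotted by distance of their midpoint from that of CDKN2A in kb (horizontal) and by TPM on a log axis (vertical), with circles for PK-1 Control and squares for Panc-1 Control; the dotted line is the floor of 1 TPM. CDKN2A and CDKN2B lie on the floor in both lines, and each of the 11 genes above it has its square below its circle.

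CDKN3 (Entrez 1033, chr14:54397007-54420218) was the CDK inhibitor gene of the highest level in PK-1 Control and stood at nearly the same level in both Controls. It measured 71.0, 33.0 and 13.8 TPM in PK-1 Control, RARγi-1 and RARγi-2, and 71.8, 41.0 and 26.6 TPM in Panc-1. RARγi-2 gave the lowest value in both lines. With RARγi-1 its log2 fold change was −1.08 (PK-1) and −0.80 (Panc-1), and with RARγi-2 it was −2.29 and −1.40. CDKN3 is known as a gene used in G2 and M phase, and all 21 genes of a mitotic list were lower past 2-fold with RARγi-2 in PK-1, 20 with RARγi-2 in Panc-1 and 19 with RARγi-1 in each line. The median log2 fold changes of that list were −1.48, −3.16, −1.53 and −2.22, against 0.15, 0.03, 0.09 and −0.03 for all entries compared. CDKN3 was lower by less than most of them: 19 of the 21 changed more in each PK-1 comparison and 20 of 21 in each Panc-1 comparison. More than CDKN2C changed 10 of the 21 in PK-1 with RARγi-1, 18 with RARγi-2, where CDKN2C was at the floor, and 1 and 5 in Panc-1 with RARγi-1 and RARγi-2. A smaller share of cells in mitosis and less CDKN3 RNA per cell cannot be told apart in bulk cultures.

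**Figure D3:**
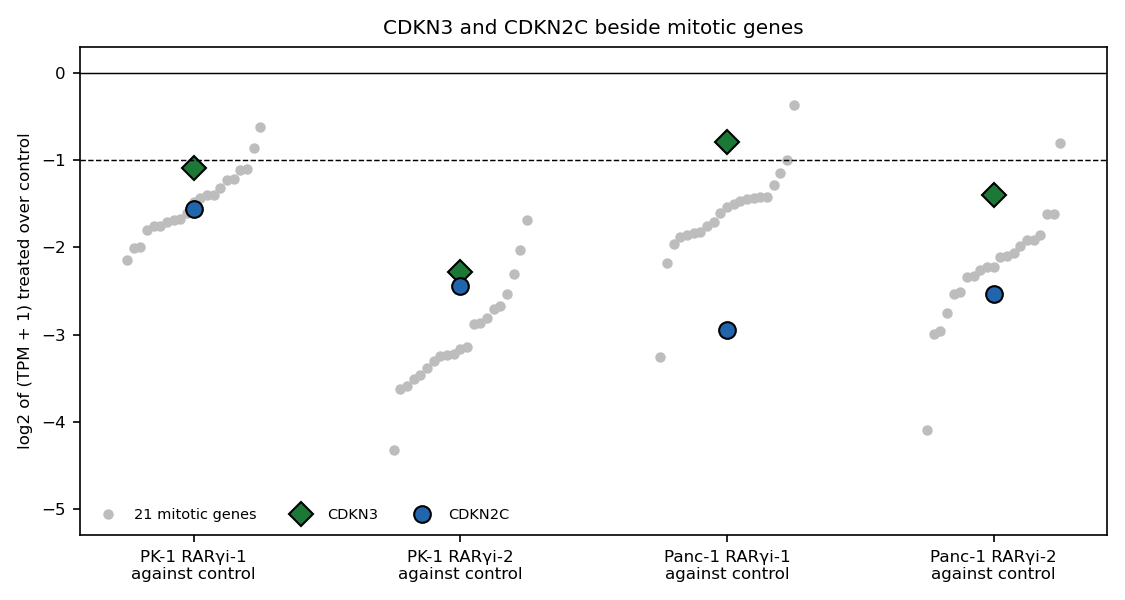
The 4 comparisons with Control stand along the horizontal axis, and the vertical axis gives log2 of (TPM + 1) treated over (TPM + 1) Control. Grey points are the 21 mitotic genes, sorted, the diamond is CDKN3 and the circle CDKN2C; the dashed line is 2-fold lower. CDKN3 sits near the top of the mitotic genes in every comparison, and CDKN2C sits near the bottom in Panc-1 with RARγi-1.

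Counted over the 8 members, 1 was higher past 2-fold in PK-1 with RARγi-1 (CDKN1A) and 2 were lower (CDKN2C and CDKN3), where 9.25% of all 13965 entries compared were higher and 4.96% lower. With RARγi-2 in PK-1, 2 were higher (CDKN1A and CDKN1B) and 2 lower (CDKN2C and CDKN3), against 12.1% higher and 12.6% lower overall. In Panc-1, 2 were higher with each inhibitor (CDKN1A and CDKN1C), against 7.4% with RARγi-1 and 8.5% with RARγi-2. With RARγi-1, 2 were lower (CDKN2C and CDKN2D), against 6.03%, and with RARγi-2, 3 were lower (these and CDKN3), against 11.2%. The comparisons of a line share their Control library, so the 2 inhibitors do not give separate counts.

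**Figure D4:**
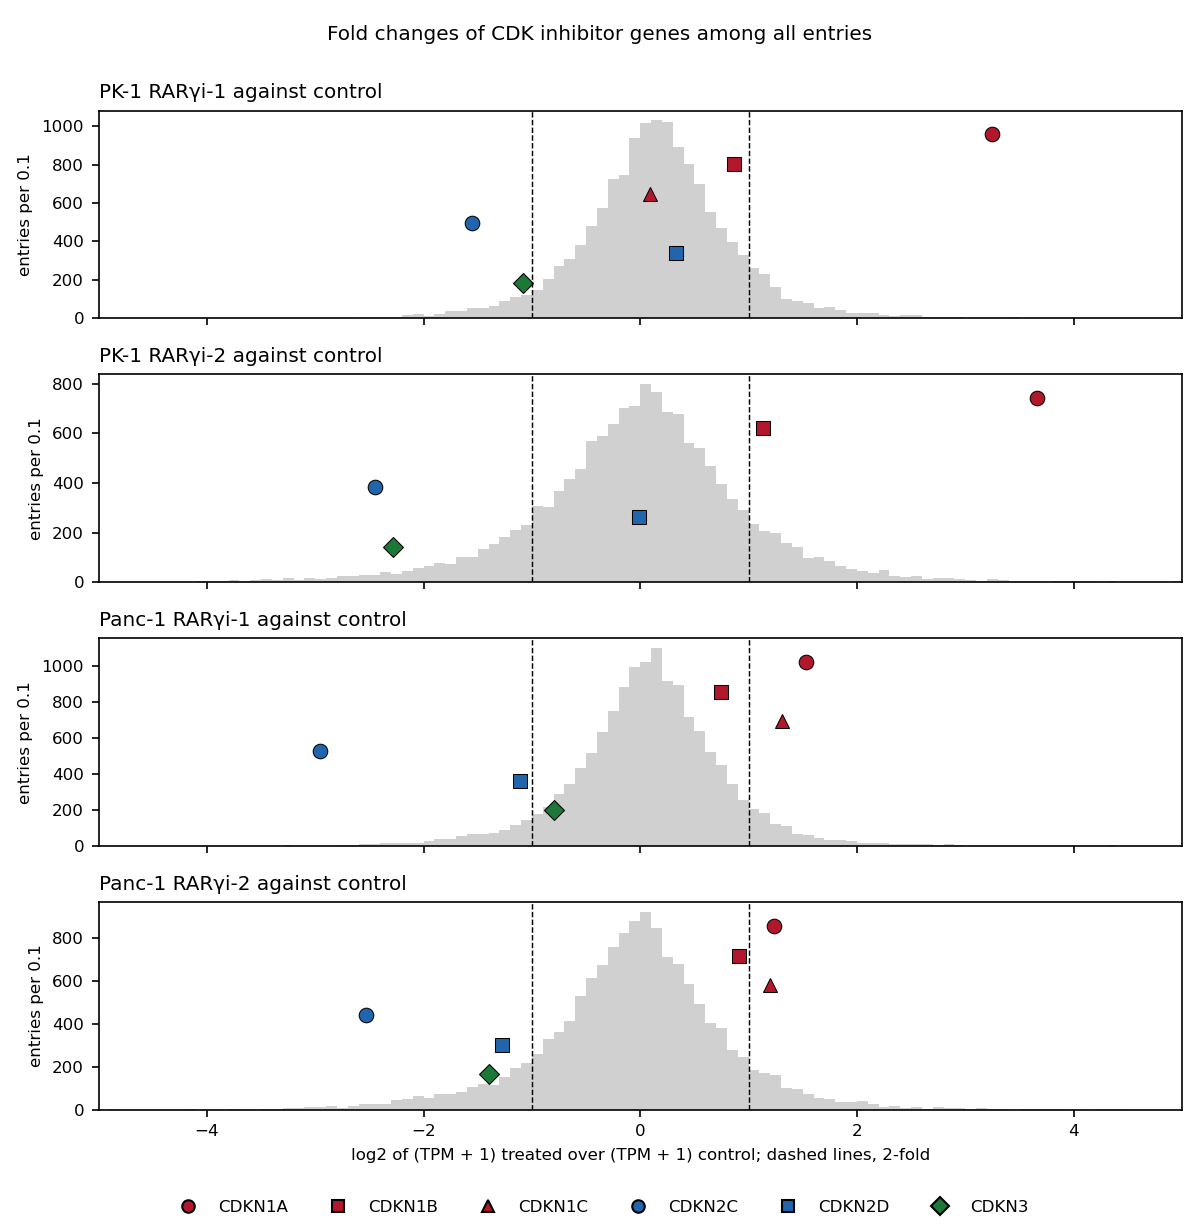
Each panel is 1 comparison with Control; grey bars count all entries compared in steps of 0.1 of the log2 fold change on the (TPM + 1) scale (horizontal axis), and the dashed lines mark 2-fold. Symbols are the members, red for CIP/KIP, blue for INK4 and green for CDKN3, placed at their fold change and at an arbitrary height. No CIP/KIP symbol lies past the lower line and no INK4 symbol past the upper one.

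No CIP/KIP gene was lower and no INK4 gene was higher past 2-fold in any of the 4 comparisons, but in PK-1 with RARγi-1 this rests on CDKN1A and CDKN2C alone, and with RARγi-2 on these and CDKN1B. The medians of the CIP/KIP members above the floor were 0.87, 2.40, 1.31 and 1.20, in the order PK-1 RARγi-1, PK-1 RARγi-2, Panc-1 RARγi-1, Panc-1 RARγi-2, and those of the INK4 members were −0.61, −1.23, −2.03 and −1.90. Each rests on 2 or 3 genes. The summed CIP/KIP level was 72.3, 417.9 and 549.0 TPM in PK-1 Control, RARγi-1 and RARγi-2, and 114.6, 303.2 and 262.0 TPM in Panc-1. The summed INK4 level, with genes at the floor taken as 0, was 15.9, 10.5 and 5.94 TPM in PK-1 and 73.6, 12.0 and 14.1 TPM in Panc-1. By the listed values, Panc-1 Control had 1.56 times as much CIP/KIP as INK4 mRNA and PK-1 Control 4.54 times. After treatment this ratio was between 18.5 and 92.4 in the 4 libraries. With genes at the floor taken as 1 TPM, a setting added after the values were seen, the highest ratio, that of PK-1 with RARγi-2, was 61.5, and the lowest was 16.2. Both settings take CDKN2A and CDKN2B as having little RNA. Their listing at the floor is no proof of that, as EIF4A1 and EIF4E were listed there too, so the true INK4 sums and ratios are not bounded. CDKN1A made up 49.9% of the CIP/KIP sum in PK-1 Control and between 78.0% and 85.3% in the treated libraries, while its share in Panc-1 was already 75.1% in Control.

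Kinases and cyclins that these proteins bind were lower in part. Of 11 such genes, 5 and 11 were lower past 2-fold in PK-1 with RARγi-1 and RARγi-2, and 6 and 8 in Panc-1, and the same 5 were lower in all 4. The shares of all entries that were lower in these comparisons were 4.96%, 12.6%, 6.03% and 11.2%. The 5 genes lower in all 4 were CDK1 and CDK2, CCNE2, a partner of CDK2, and CCNA2 and CCNB1, the cyclins of S phase and mitosis. CDK2 went from 160.1 TPM in PK-1 Control to 51.6 TPM under RARγi-1 and 17.1 TPM under RARγi-2, and from 94.7 to 34.5 and 19.7 TPM in Panc-1. CDK4, a target of the INK4 proteins, measured 385.7, 218.1 and 157.2 TPM in PK-1 and 292.8, 295.5 and 257.5 TPM in Panc-1, so that the Panc-1 libraries were close. CCND2, a D-type cyclin, was the one gene of the 11 that was higher past 2-fold, and only in Panc-1. It was at the floor in Panc-1 Control and at 6.71 and 6.72 TPM after treatment. In PK-1 it was lower after treatment, at 61.9, 41.6 and 21.5 TPM in Control, RARγi-1 and RARγi-2. The CIP/KIP sum per summed CDK2, CDK4 and CDK6 mRNA was 0.126, 1.47 and 3.01 in PK-1 Control, RARγi-1 and RARγi-2, and 0.279, 0.880 and 0.909 in Panc-1. The INK4 sum per summed CDK4 and CDK6 was 0.0384, 0.0451 and 0.0359 in the PK-1 libraries, and the Panc-1 libraries had 0.233, 0.0387 and 0.0527. With genes at the floor taken as 1 TPM the PK-1 ratios were 0.0432, 0.0536 and 0.0540, so that whether RARγi-2 lay above or below Control depends on the floor. These are ratios of mRNA, not of protein, and those of INK4 carry the same limit for CDKN2A and CDKN2B.

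**Figure D5:**
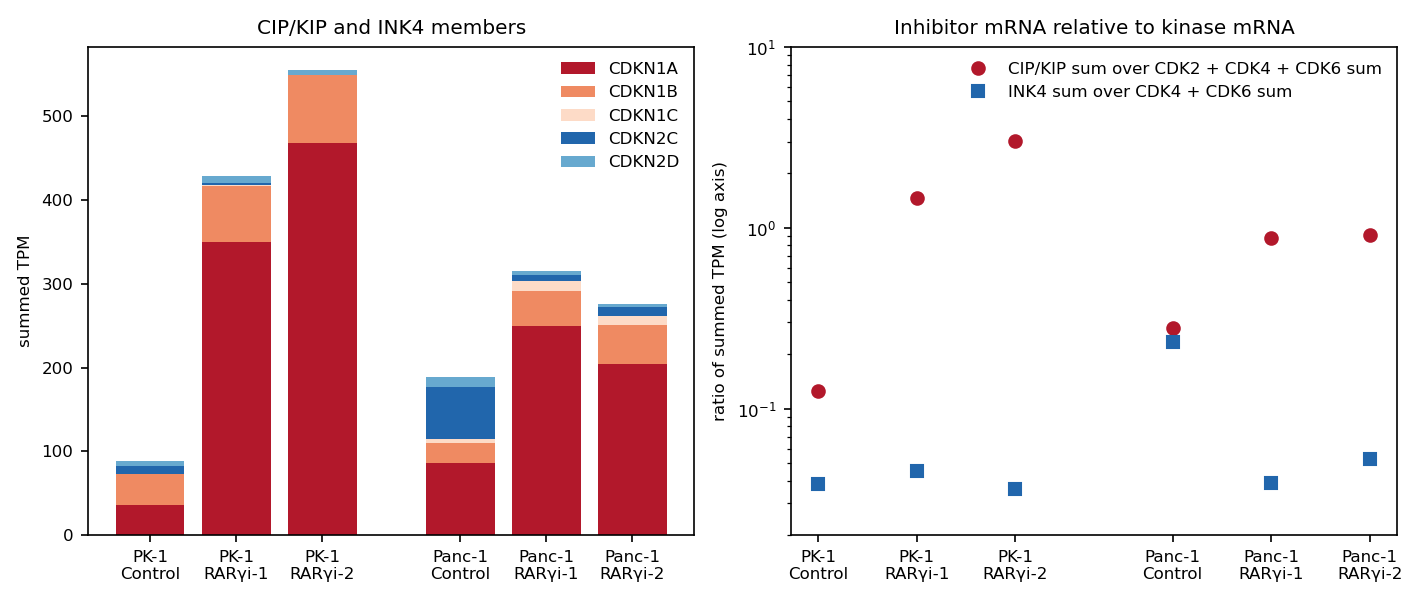
On the left, bars from 0 give the summed TPM of the CIP/KIP (reds) and INK4 (blues) members in each library, with genes at the floor taken as 0. On the right, circles give the CIP/KIP sum over the summed CDK2, CDK4 and CDK6 level and squares the INK4 sum over CDK4 and CDK6, on a log axis. CDKN1A fills most of each treated bar, and the squares of PK-1 lie between 0.0359 and 0.0451.

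Among 13 parts of the ubiquitin ligases that degrade p21, p27 and p57, some were lower past 2-fold. They numbered 3 and 4 in PK-1 with RARγi-1 and RARγi-2, against 4.96% and 12.6% of all entries. In Panc-1 they numbered 1 and 3, against 6.03% and 11.2%. CDC20, which is also in the mitotic list, was lower past 2-fold in PK-1 with both inhibitors and in Panc-1 with RARγi-2. Its log2 fold change in Panc-1 with RARγi-1 was −0.99, just short of 2-fold. UBAC1 was lower past 2-fold with RARγi-2 in PK-1 (−1.08) and in Panc-1 (−1.08). SKP2, the F-box protein that recognises p27, was the only part lower past 2-fold in all 4 comparisons. SKP2 measured 42.9, 11.8 and 5.62 TPM in PK-1 Control, RARγi-1 and RARγi-2, and 20.7, 8.98 and 5.15 TPM in Panc-1. DTL, which directs p21 to degradation in S phase, measured 28.7, 9.63 and 3.63 TPM in PK-1 Control, RARγi-1 and RARγi-2, and 26.9, 17.3 and 13.1 TPM in Panc-1, where neither change passed 2-fold. None of the 13 was higher past 2-fold in any comparison. SKP2 and DTL are themselves expressed in cycling cells.

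Of 25 transcription factors reported to act on CDK inhibitor genes, 24 were above the floor in at least 1 library, and 7, 10, 6 and 7 of the 25 were higher and 1, 2, 1 and 4 lower past 2-fold in the 4 comparisons, in the order given above. Of all entries, 9.25%, 12.1%, 7.4% and 8.5% were higher and 4.96%, 12.6%, 6.03% and 11.2% lower. These shares are over entries above the floor, as were 23, 23, 22 and 23 of the factors. The lower counts are near or below these shares, except that of 4 in Panc-1 with RARγi-2, which is above. KLF4, KLF6, CEBPB, ATF3, DDIT3 and EGR1 were higher in all 4. Those lower were TFAP4, a repressor of CDKN1A, in PK-1 with RARγi-1, TFAP4 and ID1 in PK-1 with RARγi-2, ID1 in Panc-1 with RARγi-1, and TFAP4, ID1, SMAD3 and STAT3 in Panc-1 with RARγi-2. The 2 stress factors ATF3 and DDIT3 had the largest mean change: ATF3 measured 8.03, 48.3 and 157.4 TPM in PK-1 and 5.38, 129.0 and 469.3 TPM in Panc-1, and DDIT3 48.9, 377.3 and 904.4 TPM in PK-1 and 80.8, 575.2 and 1069.7 TPM in Panc-1. Of 11 Polycomb genes and other regulators of the INK4 locus, 1 was higher past 2-fold in each comparison, near the shares of all entries given above. It was the demethylase KDM6B, with log2 fold changes from 1.35 to 1.73. Those lower past 2-fold numbered 1, 2, 1 and 1, also near these shares. They were EED in PK-1 with both inhibitors, EZH2 in PK-1 with RARγi-2, and CBX8 in Panc-1 with both, so none was lower in all 4.

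Without treatment, 3 of the 8 members were higher past 2-fold in Panc-1 Control than in PK-1 Control, where 15.7% of all 14618 entries were higher. They were CDKN2C, with a log2 difference of 2.53, CDKN1C, with 1.38, and CDKN1A, with 1.23. CDKN1C was at the floor in PK-1 Control, and its difference was 1.97 with a pseudocount of 0.1 and 2.07 with none. CDKN2D (0.85), CDKN3 (0.02) and CDKN1B (−0.56) did not pass, and none was lower past 2-fold. In PK-1 Control the order of levels was CDKN3, then CDKN1B and CDKN1A at nearly the same level (36.2 and 36.1 TPM), then CDKN2C and CDKN2D. In Panc-1 Control it was CDKN1A, CDKN3, CDKN2C, CDKN1B, CDKN2D and CDKN1C, of which the first 3 lay between 86.1 and 62.0 TPM.

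The only spread that can be had is the scatter of the differences between both treated libraries of a line, whose robust SD over entries of at least 5 TPM was 0.41 on the log2 scale in PK-1 and 0.32 in Panc-1. Real differences between the compounds enter it, and it is no replicate error. Set against Control, every change of CDKN1A, CDKN1B, CDKN2C and CDKN3 was larger than this value, as were those of CDKN1C and CDKN2D in Panc-1. CDKN2C in PK-1 (2.70 TPM and the floor) and CDKN2D in Panc-1 (4.86 and 4.25 TPM) lay under 5 TPM in the treated libraries. The spread was not taken from entries of so low a level, so it is no measure for them. Between the inhibitors, 1 member differed past 2-fold in PK-1, where 5.84% of entries did, and 0 in Panc-1, where 2.86% did. That member was CDKN3, lower with RARγi-2 by 1.20 on the log2 scale. CDKN1A was higher with RARγi-2 in PK-1 (0.42) and lower in Panc-1 (−0.29), values near the spread. As the doses are not stated, the inhibitors cannot be ranked.

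For each member above the floor, the 3 entries with the most similar course over the 6 libraries were found among the 12411 that reached 5 TPM in any library, by the root mean square difference of log2 (TPM + 1) after centring each gene on its own mean. CDKN3 ran closest to FASN (0.086), the fatty acid synthase, which measured 84.2, 36.4 and 14.3 TPM in PK-1 and 70.5, 41.8 and 28.1 TPM in Panc-1, and then to LOC100288637 and ALDH1B1. CDKN1B ran closest to MTMR3 (0.062), a phosphatase of phosphoinositides, then FOXO3, a transcription factor of the list above, and HARBI1. CDKN1C ran closest to SOX17, CARD18 and ATP6V0E2-AS1, all near or at the floor in PK-1. CDKN2D ran closest to SPA17, ADM5 and CBX8, a Polycomb protein. CDKN2C ran closest to MYBL1 (0.26), a MYB family transcription factor, then STMN3 and CENPF, a kinetochore protein of the mitotic list. The nearest entries of CDKN1A were C15orf65 (0.32), LURAP1L (0.34) and BBC3 (0.36), the last encoding PUMA, a protein that promotes apoptosis, at 3.39, 27.4 and 40.5 TPM in PK-1 and 6.74, 11.9 and 15.1 TPM in Panc-1. The measure grows with the range of a gene, so it is not compared between members. These likenesses describe 6 libraries that share lines and treatments.

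Of the 6 epithelial markers checked in the Controls, all exceeded the floor in PK-1. In Panc-1 Control, KRT8, KRT18 and KRT19 were high, KRT7 was at 4.19 TPM and EPCAM at 13.4 TPM, and CDH1 was listed at the floor. Under treatment, KRT8, KRT18 and KRT19 were lower past 2-fold in Panc-1, by −2.43, −1.99 and −2.55 on the log2 scale under RARγi-1 and by −2.64, −2.19 and −3.21 under RARγi-2, beside the member changes there. In PK-1 KRT7 was lower with both compounds (−1.30 and −1.20) and CDH1 was higher with RARγi-2 (1.17). Of 9 markers of other cell types, 7 were at the floor in all 6 libraries. CD68, known from macrophages, was at 19.8 TPM in PK-1 Control, with log2 fold changes of 2.20 and 1.61 under RARγi-1 and RARγi-2, and between 238.3 and 276.1 TPM in the Panc-1 libraries. PRSS1, an acinar enzyme, was at 1.06, 11.1 and 21.2 TPM in PK-1 Control, RARγi-1 and RARγi-2 and at the floor throughout Panc-1. PTPRC, the general leukocyte marker, was at the floor, and the part of the keratins, CD68 and PRSS1 in the changes of the CDK inhibitor genes was not tested.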

How the data were processed

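A stranded mRNA kit had been used for the libraries. The authors deposited log2 TPM values per gene, with everything under 1 TPM raised to 1 TPM. Per the labels the build is hg38, while the aligner, counting method and annotation are not given in the sources used here. TPM keeps no depth, so no counting error can be given. The log2 step was undone before any sum or ratio. Fold changes used a pseudocount of 1 TPM and a threshold of 2-fold, over entries above the floor in at least 1 of the libraries compared. A repeated symbol (113 in all, 0 among the members) was taken as its entry with the highest mean. The alternatives were a pseudocount of 0.1 or none, a minimum of 5 TPM, scaling by median ratios, thresholds of 3-fold and 1.5-fold, and summing repeated symbols. One gene list and 1 further gene are not reported here. The members and gene lists were chosen with earlier results of these data known. The named genes of the lists were mainly taken from the up to 4 with the largest mean change among those of at least 5 TPM. Not every gene that met this rule was named. SKP2, DTL, MTAP and genes that small counts rest on were added. H19, CDK4, FOXO3, DMRTA1, CD68 and PRSS1 were named after their values were seen. Promoters and gene positions came from RefSeq on GRCh38.p14. The fold change step was tried on a simulated library with large changes set in entries well above the floor, which does not test genes near the floor. Python 3.11.15, pandas 2.3.3 and numpy 2.4.6 were used.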

Additional observations from a re-analysis of the deposited data

How the results depend on the processing

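At a threshold of 1.5-fold, 2 members were higher in PK-1 with RARγi-1, and 2 members in PK-1 and 1 in Panc-1 differed between the inhibitors. At 3-fold, 0 members were lower in PK-1 with RARγi-1 and 1 was higher with RARγi-2. In Panc-1 at 3-fold, 0 were higher and 1 was lower with RARγi-1, and 0 were higher and 1 was lower with RARγi-2, while 1 was higher in Panc-1 Control than in PK-1 Control and 0 differed between the inhibitors in PK-1. With a pseudocount of 0.1, and with none, 2 members differed between the inhibitors in PK-1, as CDKN2C, at the floor with RARγi-2, joined CDKN3. The other counts stayed within 1.5 times under these alternatives, and all counts did with a minimum of 5 TPM, median-ratio scaling or summed repeated symbols. Apart from this CDKN2C difference, each member change that could be computed kept its side of 2-fold when the pseudocount, the minimum, the scaling or the summing was changed. With the minimum of 5 TPM, CDKN1C drops out of Panc-1 Control against PK-1 Control, which leaves 2 members higher. Values near 0 crossed it on scaling: CDKN2D in PK-1 with RARγi-2 ranged from −0.02 to 0.02 and CDKN3 in Panc-1 Control against PK-1 Control from −0.04 to 0.02. Median-ratio scaling shifted the log2 fold changes by −0.11, 0.05, −0.09 and −0.00 in the 4 comparisons with Control. Each treated library was set against the Control of its own line. The labels give no replicate numbers and each condition has 1 library, so no pairs of replicates could be formed. A model with line and treatment as terms, which would use the lines as replicates of each other, was not run. The family ratios with genes at the floor taken as 1 TPM are given in the report. With 1 library per condition and unknown depth, neither culture variation nor counting error is measured, and changes of genes near the floor are limited by it.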
